A study of Mus musculus with 6 samples.

Results

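Dendritic cells grown from mouse progenitors with GM-CSF plus TNFa (GM-TNFa-DC, 2 arrays) were compared with dendritic cells grown with GM-CSF alone (GM-DC, 2 arrays). These are 4 of the 6 arrays of the series, and the comparison covers 18193 genes. All cells came from bone marrow of C57BL/6 mice. The remaining group, GM-MPP (2 arrays), holds the multipotent progenitors, expanded in stem cell cytokines and GM-CSF, from which both kinds of dendritic cell were derived, so that GM-CSF was present in all 3 groups and TNFa only in GM-TNFa-DC. The sources used here do not give the dose or duration of TNFa, the age of the animals, any sorting of the cells or what the sample numbers 1 and 2 stand for. Arrays with the same number were set against each other (GM-TNFa-DC 1 minus GM-DC 1 is pair 1, GM-TNFa-DC 2 minus GM-DC 2 is pair 2), and the genes described are those that differ the same way in both pairs. A gene is represented by its brightest single-gene probe set. Levels and differences are on the log2 scale, where a difference of 1 is 2-fold, and where array values are listed, number 1 comes first.

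TNFa is an inflammatory cytokine that binds the receptors Tnfrsf1a and Tnfrsf1b. Adaptor proteins at the receptor activate the IkB kinase, which marks the inhibitory IkB proteins for destruction and so frees NF-kB, a family of dimeric transcription factors, to enter the nucleus. NF-kB drives genes for cytokines, chemokines, adhesion molecules and survival factors, and also genes for its own inhibitors, which shut the response off again. In dendritic cells, which present antigen to T cells, this pathway is known for its part in maturation, when the cells take up less antigen, display costimulatory molecules and migrate to lymph nodes under the chemokine receptor Ccr7.

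The 4 arrays had medians between 4.74 and 4.77. Within a group the arrays differed by number: the poly-A control RNAs spiked in ahead of labelling were 2.16-fold brighter on GM-DC 1 than on GM-DC 2 and 2.60-fold brighter on GM-TNFa-DC 1 than on GM-TNFa-DC 2, whereas the hybridisation controls differed 1.07-fold and 0.865-fold. All 9 markers of dendritic cells were measured. Their summed level, as log2, was 15.48 and 13.63 on the GM-DC arrays, 15.67 and 13.94 on the GM-TNFa-DC arrays and 9.59 and 10.06 on the GM-MPP arrays. The uptake receptor Cd209a stood apart, at 11.37 on GM-DC 1 but 4.33 on GM-DC 2, where the progenitors were at 3.91 and 4.11. Summed markers of T, B and NK cells lay between 6.15 and 6.70 and those of stromal cells between 5.26 and 5.68 over all 6 arrays. Nothing in the labels ties the samples of a group to separate cultures or animals, so p-values reflect only how far these samples lie apart, and that spread may be technical.

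Among the motifs searched, the NF-kB consensus was the one that most of the NF-kB regulators carried, and promoters of 6 genes higher with TNFa that hold it are given first. Each is the 150 bases before a transcription start in the RefSeq promoter table of build GRCm38.p6, read 5′ to 3′ on the gene's strand, with matches to the NF-kB consensus, searched on both strands, in capitals. Where a gene had several starts, as Nfkb2 and Tnfaip3 did, the promoter with the most matches is shown. The other Tnfaip3 promoter had 0 matches. Adjoining matches that overlap form a single run of capitals.
Nfkbia (chr12:55492648-55492797, minus strand): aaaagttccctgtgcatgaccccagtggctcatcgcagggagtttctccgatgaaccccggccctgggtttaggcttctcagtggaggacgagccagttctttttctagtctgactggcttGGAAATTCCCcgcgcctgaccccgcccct
Nfkbie (chr17:45555550-45555699, plus strand): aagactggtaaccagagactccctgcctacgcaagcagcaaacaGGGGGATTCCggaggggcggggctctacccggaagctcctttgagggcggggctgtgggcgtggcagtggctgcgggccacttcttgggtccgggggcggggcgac
Nfkb2 (chr19:46304587-46304736, plus strand): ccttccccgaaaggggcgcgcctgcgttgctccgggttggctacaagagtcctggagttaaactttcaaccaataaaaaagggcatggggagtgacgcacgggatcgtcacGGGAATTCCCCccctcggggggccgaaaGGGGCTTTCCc
Rel (chr11:23770970-23771119, minus strand): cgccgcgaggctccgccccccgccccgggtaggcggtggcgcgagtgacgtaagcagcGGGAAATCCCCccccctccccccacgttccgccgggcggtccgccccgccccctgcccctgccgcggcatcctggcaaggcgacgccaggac
Tnfaip3 (chr10:19015411-19015560, minus strand): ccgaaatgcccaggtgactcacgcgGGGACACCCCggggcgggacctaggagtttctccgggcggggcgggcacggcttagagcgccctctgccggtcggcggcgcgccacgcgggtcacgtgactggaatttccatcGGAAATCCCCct
Cxcl2 (chr5:90903749-90903898, plus strand): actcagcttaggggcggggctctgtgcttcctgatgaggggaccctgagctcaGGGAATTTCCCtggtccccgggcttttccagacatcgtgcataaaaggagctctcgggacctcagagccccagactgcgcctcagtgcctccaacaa

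The window searched for the shares that follow ran from 250 bases before to 50 bases after the start. A promoter was found for 14368 of the array's genes, and 6.08% of these genes had a match to the NF-kB consensus. A gene counts as matched if any of its promoters holds a match. Among NF-kB subunits and inhibitors, 7 of the 9 genes with a promoter had a match (77.8%), and among the NF-kB target list 15 of 31 (48.4%). Counted by promoter, 9 of 14 of the subunits and inhibitors had a match (64.3%), against 5.13% for the array's genes. Of the genes at least 1.5-fold higher in both pairs, 22 of 73 had a match (30.1%), against 2 of 82 of those at least 1.5-fold lower (2.44%). The 1.5-fold higher genes on the array include 13 of the target list and 6 subunits or inhibitors, so these shares are not separate observations. The target list was drawn up as NF-kB targets, and its share is a description only. Of the genes at least 2-fold higher, 4 of 10 had a match, namely Cxcl2, Nfkbie, Tnfaip3 and Slamf8, the last one downstream of its start. The AP-1 motif TGANTCA was in 7.5% of the array's genes and in 12 of 73 of the 1.5-fold higher ones (16.4%), in 3 of 10 of the 2-fold higher ones (30.0%), in 3 of 9 NF-kB subunits and inhibitors (33.3%) and in 3 of 31 NF-kB targets (9.68%). The matches describe letters in a window and were not measured as binding.

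With TNFa, 13 genes were at least 2-fold higher in both pairs, which is 0.0715% of the genes compared, and 9 were at least 2-fold lower, which is 0.0495%. The 13 are the secreted proteins Il1b, Fst and Cxcl2, the NF-kB regulators Nfkbiz, Tnfaip3, Nfkbie and Relb, the surface receptors Clec4e, Gpr84 and Slamf8, the retinoic acid enzyme Aldh1a2, the transcription factor Foxp4 and the ribosome assembly factor Tma16. The 9 lower genes are the lectin receptors Mrc1, Clec10a and Mgl2, the chemokine receptor Ccr2, the regulators Maf, Id1 and Rgs2, the ribonuclease Ear3 and the scaffold Frmd4b. None of the 18193 genes was called at an adjusted p under 0.05 (limma with Benjamini-Hochberg adjustment, 0.0% in either direction, lowest adjusted p = 1.00), with 270 higher and 140 lower at an unadjusted p under 0.05. With 2 arrays against 2, an exact two-sided permutation test of a single gene cannot go below p = 0.333, so the values that follow describe these arrays, and unadjusted p-values are for genes picked by the size of their difference. The limma fit did not use the pairing, so its errors and p-values also hold the difference between numbers 1 and 2. Its spread was estimated over all 3 groups, so the gap between the GM-MPP arrays enters these errors too. In such bulk RNA, fewer cells of a type and less RNA per cell cannot be told apart.

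**Figure D1:**
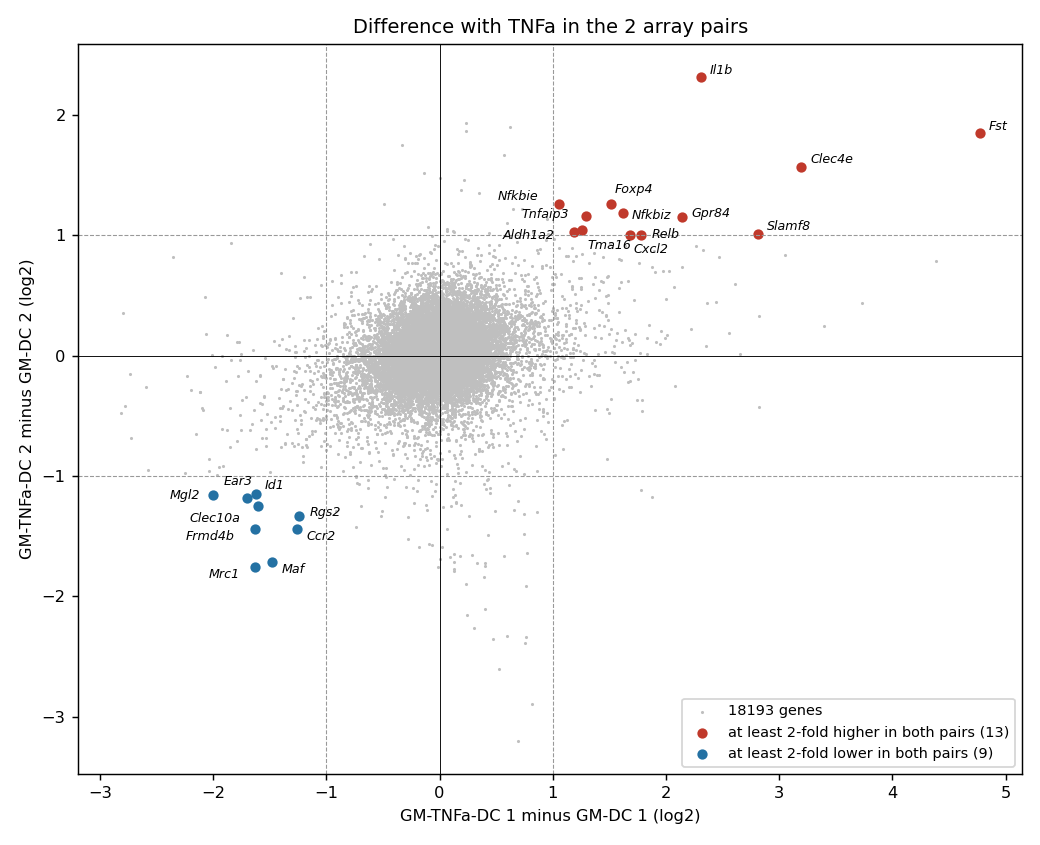
Difference between GM-TNFa-DC and GM-DC (log2) for 18193 genes, with pair 1 on the horizontal and pair 2 on the vertical axis; dashed lines mark 2-fold. The 13 red genes lie beyond 2-fold higher and the 9 blue genes beyond 2-fold lower in both pairs, and the cloud reaches farther along pair 1 on its upper side and farther down in pair 2.

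At a minimum of 1.5-fold, 91 genes were higher (0.5%) and 105 lower (0.577%) in both pairs. Without a minimum, 30.9% of genes were higher and 26.3% lower in both pairs, and 42.3% differed in opposite directions. The counts of list members given further on are to be read beside these shares. The genes nearest to the 2-fold line on the inner side were Cxcl2 (1.00 in the smaller pair), Relb and Slamf8 (both 1.01) and Aldh1a2 (1.03), and those just outside were Pgap1 (-0.99), Ifitm6 (-0.98) and the AP-1 component Junb (0.97). Pair 1 alone had 258 genes at least 2-fold higher (1.42%) and 229 lower (1.26%), and pair 2 alone had 37 (0.203%) and 95 (0.522%). In 11 of the 13 higher genes the difference was larger in pair 1. In 10 of the 13, GM-DC 2 was already above GM-DC 1. The share of all genes with GM-DC 2 above GM-DC 1 was not computed, here or for the lists further on.

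Of 31 measured genes of TNF receptor signalling, 20 were higher and 5 lower in both pairs, with a median difference of 0.19 in pair 1 and 0.14 in pair 2. Over all genes the medians were -0.01 and 0.03. The death domain receptor Tnfrsf1a was at 9.55 and 9.57 on the GM-DC arrays and 9.19 and 9.49 with TNFa, and the second receptor Tnfrsf1b at 9.85 and 10.17 against 9.87 and 10.53. The first was lower and the second higher in both pairs, by at most 0.36 in any pair.

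Birc3, an inhibitor of apoptosis that attaches ubiquitin at the receptor, led this list: it was at 9.61 and 10.05 on the GM-DC arrays and at 11.05 and 10.87 on the GM-TNFa-DC arrays. Both arrays with TNFa exceeded both without it (1.13 ± 0.36 SE, limma, unadjusted p = 0.0215). Its other probe set did not differ the same way in both pairs. Tnip1, which helps Tnfaip3 restrain the pathway, went from 9.82 and 10.15 to 10.72 and 10.90, again without overlap. Adam17, the protease that sheds TNFa and its receptors, went from 9.74 and 10.10 to 10.54 and 10.54. Cflar, an inhibitor of death receptor signalling, was at 8.71 and 8.42 with TNFa, 0.87 and 0.42 above its GM-DC arrays. For these 4 genes the levels with TNFa lay above those without it on every array, and 12 of the 31 genes had groups that did not overlap in that direction, where 14.9% of all genes did.

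The adaptors were less alike. Traf1, itself a known NF-kB target, was at 8.71 and 8.59 in GM-DC and at 10.39 and 8.38 in GM-TNFa-DC, so that only the GM-TNFa-DC 1 array was high and the pairs opposed each other (1.68 and -0.21). Traf2, which recruits ubiquitin ligases to the receptor, differed by 0.66 and 0.31, and Traf6, the adaptor of the toll-like and IL-1 receptors, by 0.92 and 0.29. Map3k14, the kinase of the alternative NF-kB branch, differed by 0.93 in pair 1 and 0.04 in pair 2. Tradd, Fadd and Map3k7 differed by at most 0.19 in either pair. Tnf itself was at 6.32 and 6.96 in GM-DC and 6.52 and 7.46 in GM-TNFa-DC, and the groups overlapped.

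All 11 measured NF-kB subunits and inhibitors were higher in both pairs (median 1.30 in pair 1 and 0.74 in pair 2), where 30.9% of all genes were. Their groups did not overlap in 9 of the 11, where 14.9% of all genes had higher groups without overlap. Tnfaip3, or A20, the ubiquitin-editing enzyme that switches off signalling at the TNF receptor, was at 9.12 and 9.20 on the GM-DC arrays and at 10.41 and 10.36 on the GM-TNFa-DC arrays. The arrays of each group were close to each other, and both with TNFa were above both without (1.23 ± 0.32 SE, limma, unadjusted p = 0.00904). Nfkbie, which encodes the inhibitor IkB epsilon, was at 9.36 and 8.53 and with TNFa at 10.42 and 9.78. Nfkbiz, an atypical nuclear IkB protein, was at 5.91 and 7.35 and with TNFa at 7.53 and 8.53. Both gave no overlap, but the lower GM-TNFa-DC array of Nfkbiz exceeded the higher GM-DC array by less than the GM-DC arrays differed from each other, and of its 2 other probe sets only 1 was higher in both pairs.

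Nfkb2, the precursor subunit of the alternative NF-kB branch, was at 8.30 and 7.40 on the GM-DC arrays and at 9.95 and 8.32 on the GM-TNFa-DC arrays. Relb, its dimer partner, was at 7.98 and 6.56 and with TNFa at 9.76 and 7.57. In both genes number 1 was the higher array of each group, and for Relb GM-DC 1 was above GM-TNFa-DC 2, so its groups overlapped (1.39 ± 0.94 SE, unadjusted p = 0.193). Bcl3, a nuclear cofactor of the NF-kB homodimers, went from 6.06 and 6.98 to 8.20 and 7.72, a difference of 2.14 in pair 1 and 0.74 in pair 2.

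Among the members of the classical branch, Rela differed by 0.58 and 0.34 and Rel by 1.43 and 0.14. Rel was high only on GM-TNFa-DC 1, at 8.67, against 6.65 on GM-TNFa-DC 2 and 7.24 and 6.51 on the GM-DC arrays. Nfkbia, which encodes IkB alpha, was bright on every array, at 12.13 and 12.50 without and 12.84 and 12.83 with TNFa. Its difference was small (0.71 and 0.33), but its 4 other probe sets were all higher in both pairs as well. Nfkbib and Nfkbid differed by 0.88 and 0.54 and by 0.91 and 0.44. With 1 of the 4 arrays left out, the list's median was lowest without GM-TNFa-DC 1 (0.52) and highest without GM-TNFa-DC 2 (1.26), beside 1.16 with all arrays.

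**Figure D2:**
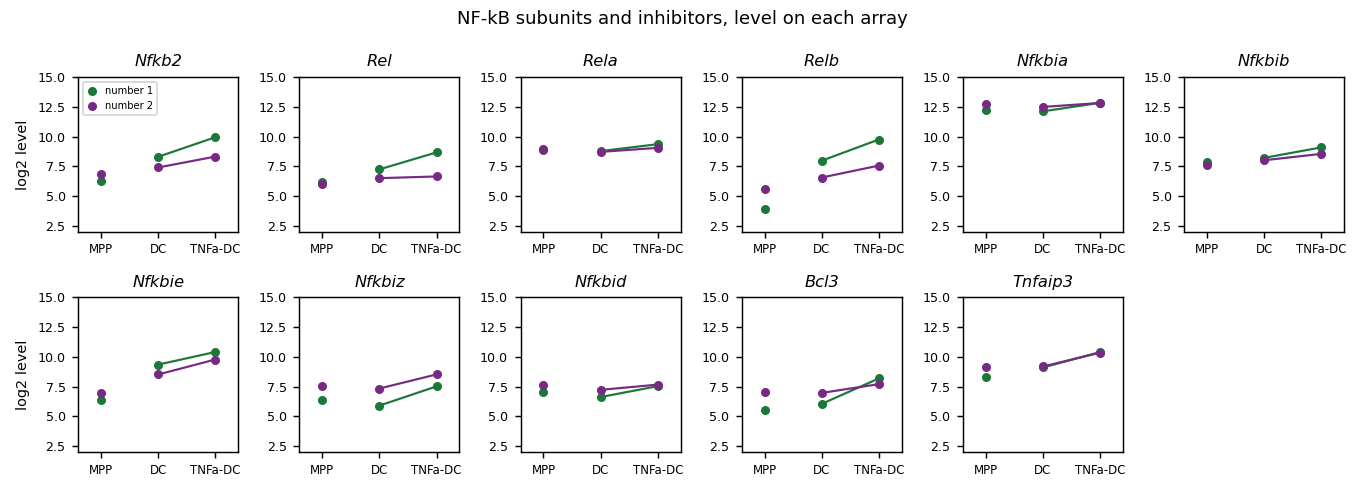
Log2 level of the 11 measured NF-kB subunits and inhibitors on each of the 6 arrays; green is number 1, purple number 2, and lines join the GM-DC and GM-TNFa-DC arrays of a number. Every line goes up, steeply in both numbers for Tnfaip3, Nfkbie and Nfkbiz and almost only in number 1 for Rel.

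Of 42 measured NF-kB target genes, 31 were higher and 1 lower in both pairs (medians 0.48 and 0.42), and 13 of them were at least 1.5-fold higher. The median of the mean differences was 0.51. It was 0.04 without GM-DC 1 and 0.09 without GM-TNFa-DC 2, but 0.91 without GM-DC 2 and 0.89 without GM-TNFa-DC 1, since leaving out 1 array leaves the numbers unmatched and 32 of the 42 genes were higher on GM-DC 2 than on GM-DC 1. Icam1, the adhesion molecule that holds T cells to the dendritic cell, was at 9.46 and 9.21 in GM-DC and at 10.96 and 10.13 in GM-TNFa-DC. Its groups did not overlap (1.21 ± 0.44 SE, unadjusted p = 0.0350). Sod2, the mitochondrial superoxide dismutase, was at 9.85 and 11.32 and with TNFa at 10.91 and 12.22, so each pair differed by about the same amount (1.06 and 0.90) although the groups overlapped. Pde4b, a cAMP phosphodiesterase, differed by 0.88 in each pair and the toll-like receptor Tlr2 by 0.87 and 0.85. Of other probe sets, 3 of 5 for Pde4b and 2 of 3 for Sod2 were higher in both pairs. Olr1, the receptor for oxidised LDL, differed by 1.21 and 0.83.

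Il1b, which encodes the pyrogenic cytokine IL-1 beta, had the largest difference shared by both pairs and was the only gene past 4-fold in both. It was at 6.93 and 10.08 on the GM-DC arrays and at 9.24 and 12.40 on the GM-TNFa-DC arrays, 4.95-fold and 4.97-fold higher. GM-DC 2 was nevertheless above GM-TNFa-DC 1, so the groups overlapped. The limma fit did not use the pairing, and its wide error (2.31 ± 1.34 SE, unadjusted p = 0.138) holds the gap between the numbers. The progenitors were lower than all 4, at 4.94 and 5.12. Il1a, its relative, followed with 0.75 and 1.33.

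Fst encodes follistatin, a secreted protein that binds activin. It was at 4.55 and 7.15 on the GM-DC arrays and at 9.32 and 8.99 on the GM-TNFa-DC arrays, with 3.59 and 3.64 in the progenitors. The groups did not overlap, and the size of the difference rested on how low GM-DC 1 was (4.77 in pair 1 and 1.85 in pair 2). Its second probe set was also higher in both pairs (3.55 and 0.78). Cxcl2, a chemokine for neutrophils, was at 5.27 and 10.37 and with TNFa at 6.95 and 11.37. Its arrays of number 2 were both far above those of number 1, and its standard error of 2.10 exceeded the mean difference of 1.34. The related Cxcl3 was likewise split by number, at 3.50 and 11.58 without and 7.23 and 12.02 with TNFa.

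Ccl22, a chemokine for T cells made by mature dendritic cells, was at 10.37 and 10.22 on the GM-DC arrays and at 12.40 and 10.92 on the GM-TNFa-DC arrays. Cxcl16, a membrane-anchored chemokine, was at 9.88 and 10.31 and with TNFa at 11.48 and 11.10. Neither gene's groups overlapped, and the unadjusted p was 0.0458 for Ccl22 and 0.00935 for Cxcl16. Ccl17, which shares its receptor with Ccl22, differed by 0.59 and 0.54. Of 32 measured chemokines 17 were higher and 3 lower in both pairs, and of 35 cytokines 22 were higher and 3 lower. Over all genes 30.9% were higher and 26.3% lower in both pairs.

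Some inflammatory genes differed mainly in pair 2. Ptgs2, the inducible cyclooxygenase, was at 4.18 and 6.60 in GM-DC and at 4.80 and 8.50 in GM-TNFa-DC. Ptges, which makes prostaglandin E2 from its product, was at 4.86 and 6.86 and with TNFa at 5.09 and 8.79. Il6 was at 4.64 and 7.17 and with TNFa at 4.86 and 8.63. Of the 21 measured genes of prostaglandin and leukotriene synthesis, 10 were lower and 6 higher in both pairs (medians -0.45 and 0.03), so Ptgs2 and Ptges do not stand for their list. For Ptgs2, Ptges and Il6, GM-TNFa-DC 2 was the highest of the 4 arrays and number 1 stayed near the array median.

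Other genes differed mainly in pair 1. Cfb, complement factor B, was at 5.84 and 9.85 in GM-DC and at 10.22 and 10.64 in GM-TNFa-DC. Acod1, which makes the antimicrobial metabolite itaconate, differed by 3.05 and 0.84. In Cfb the 2 arrays with TNFa were close and GM-DC 1 was the low one, as in Fst. Mir155hg, the host transcript of miR-155, differed by 2.27 and 0.91. The array measured that transcript and not the microRNA, which lies within it in the RefSeq annotation and whose mature strand is shown with its seed, bases 2 to 8, in capitals.
mmu-miR-155-5p: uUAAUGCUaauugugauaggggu

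Clec4e, or Mincle, a lectin receptor for mycobacterial glycolipids, was at 8.49 and 11.04 on the GM-DC arrays and at 11.69 and 12.61 on the GM-TNFa-DC arrays. Both arrays with TNFa were above both without (2.38 ± 0.89 SE, unadjusted p = 0.0396), and its second probe set gave 3.14 and 1.71. Gpr84, a receptor for medium-chain fatty acids, was at 5.26 and 7.74 and with TNFa at 7.41 and 8.90. Slamf8, an immunoglobulin-like receptor of myeloid cells, was at 3.86 and 4.17, below the array medians, and with TNFa at 6.67 and 5.18. The groups of Slamf8 did not overlap and those of Gpr84 did, since GM-DC 2 was above GM-TNFa-DC 1.

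The other 3 genes of the 13 were of mixed roles. Aldh1a2, which makes retinoic acid in dendritic cells, was at 5.97 and 9.28 without and 7.16 and 10.30 with TNFa, a split by number in both groups. Foxp4, a forkhead transcription factor, was at 5.84 and 5.66 and with TNFa at 7.35 and 6.92. Its arrays were close within each group and did not overlap, and both of its other probe sets were higher in both pairs, by 0.07 to 1.07. Tma16 was at 8.12 and 9.83 and with TNFa at 9.38 and 10.87. One other probe set of Tma16 was higher (1.01 and 1.26) and one lower (-0.68 and -0.32), and with its probe sets averaged the mean difference was 0.59 instead of 1.15. Over all 13 genes, 7 had groups without overlap (14.9% of all genes had higher groups without overlap), and as the genes were chosen by these values, the count is a description only. Of their 10 other probe sets, 8 were higher in both pairs, by any amount.

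**Figure D3:**
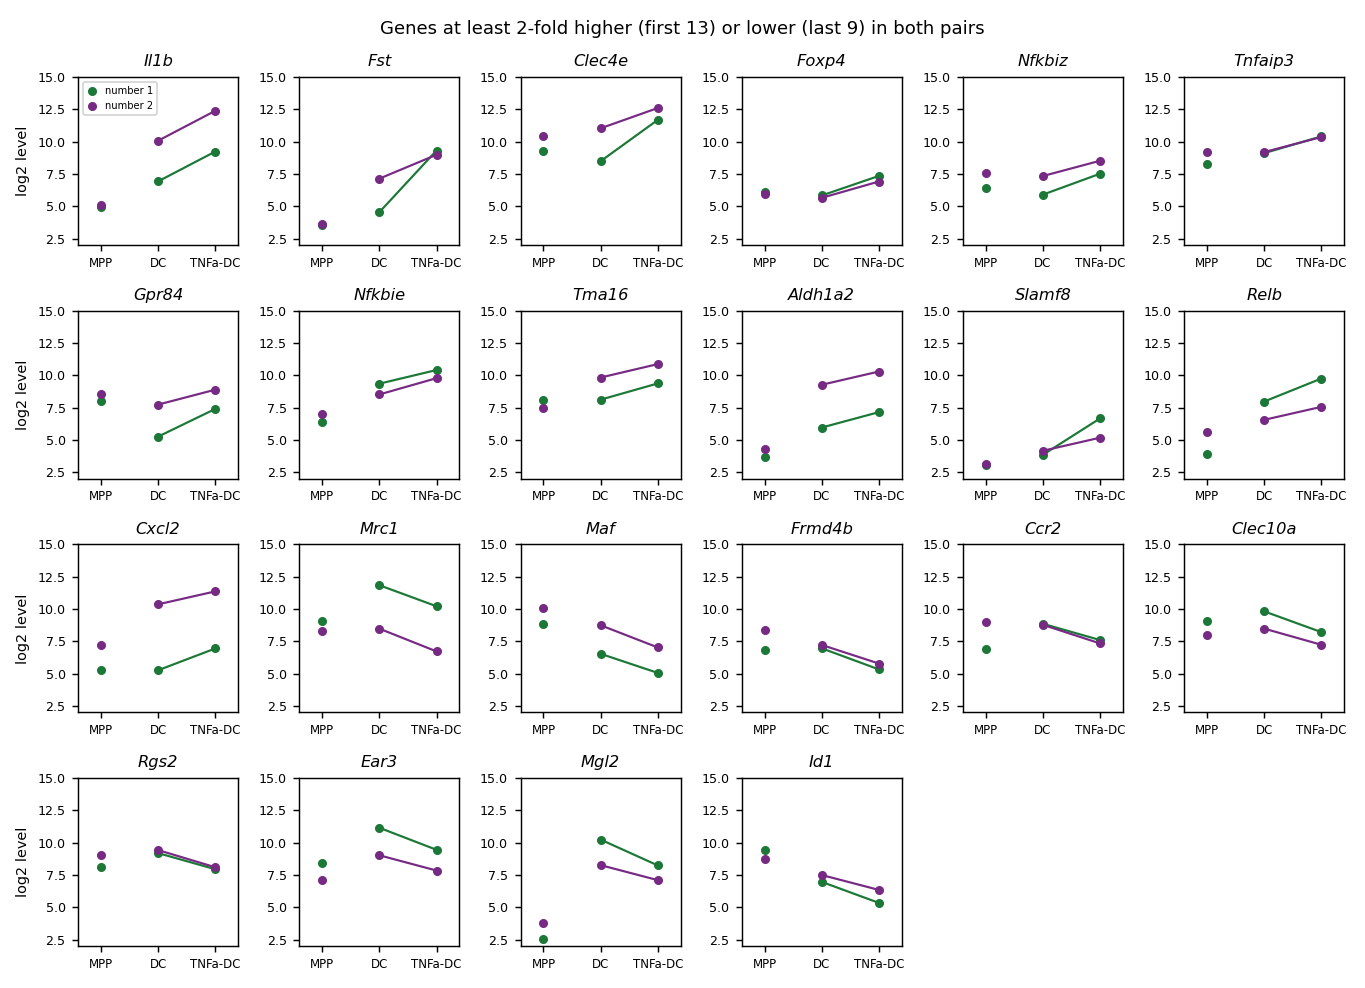
Log2 level on each of the 6 arrays for the 13 genes at least 2-fold higher and the 9 at least 2-fold lower in both pairs; green is number 1, purple number 2, and lines join GM-DC to GM-TNFa-DC. Within the panels the lines of the 2 numbers run the same way but often far apart, as for Il1b, Cxcl2, Aldh1a2 and Mrc1. The lines of Tnfaip3, Ccr2 and Rgs2 lie close together, whereas their GM-MPP arrays differ more.

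Maturation genes were higher in most cases, and more so in pair 1. Of 34 measured genes of dendritic cell maturation and migration, 28 were higher and 3 lower in both pairs, with medians of 0.91 in pair 1 and 0.25 in pair 2. Without GM-TNFa-DC 1 the median was 0.01, and with GM-DC 2 left out it was 0.31. Ccr7, the receptor that guides dendritic cells to lymph nodes, was at 10.41 and 9.41 on the GM-DC arrays, at 11.87 and 9.91 on the GM-TNFa-DC arrays and at 2.85 and 3.44 in the progenitors. Cd40, the receptor for T cell help, was at 6.62 and 5.80 and with TNFa at 8.98 and 6.24. Cd83, a surface marker of mature dendritic cells, was at 10.10 and 8.57 and with TNFa at 11.53 and 8.93. In all 3 genes number 1 was the higher array of its group, GM-TNFa-DC 1 was the highest of the 4, and the groups overlapped.

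The costimulatory ligands were higher on GM-TNFa-DC 1 alone. Cd80 was at 7.52 and 7.72 in GM-DC and at 8.38 and 7.72 in GM-TNFa-DC, a difference of 0.86 in pair 1 and 0.01 in pair 2. Cd86 was at 8.95 and 9.11 and with TNFa at 9.96 and 8.90, with the pairs opposed. Socs2, an inhibitor of cytokine signalling, likewise differed by 1.10 in pair 1 and -0.02 in pair 2. Il15ra, which presents IL-15 to lymphocytes, was one of the more even genes, at 6.60 and 6.59 without and 7.24 and 7.36 with TNFa (0.70 ± 0.19 SE, unadjusted p = 0.0103). Fas, the death receptor, went from 8.04 and 8.04 to 9.64 and 8.65 without overlap. The member with the largest lower difference was the TNF family ligand Tnfsf14 (-1.18 and -0.69).

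Antigen presentation genes differed less. Of 17 measured genes of MHC class II presentation 9 were higher and 3 lower in both pairs (medians 0.10 and 0.18), and none of them reached 1.5-fold in both. H2-Aa was at 13.60 and 12.12 in GM-DC and at 13.76 and 12.30 in GM-TNFa-DC, and Cd74, the invariant chain, at 13.50 and 11.49 against 13.71 and 11.85. Both were higher on number 1 in each group, by more than they differed with TNFa. Ciita, the coactivator of class II genes, differed by -0.08 and 0.10, and Rfx5, a factor that binds their promoters, by 0.85 and 0.49 without overlap. Of 17 class I genes 12 were higher and 2 lower in both pairs (medians 0.45 and 0.15), among them Tap1, a subunit of the peptide transporter, at 8.57 and 9.40 without and 9.71 and 9.73 with TNFa.

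Over the list of dendritic cell identity, 16 of 37 measured genes were higher and 6 lower in both pairs, with medians of 0.12 and 0.15. Relb was the member at least 2-fold higher in both and Mgl2 the one at least 2-fold lower, and Cd209a differed by -2.74 in pair 1 and -0.15 in pair 2. Itgax, or CD11c, was at 11.52 and 10.75 in GM-DC and differed with TNFa by 0.07 and 0.24. Zbtb46, a transcription factor of conventional dendritic cells, was at 6.45 and 4.55 and with TNFa at 6.57 and 4.92. Irf4 differed by 0.43 and 0.15, Irf8 by 1.08 and -0.01 and Id2 by -0.15 and 0.27. The groups of these 5 genes overlapped.

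Among the 9 lower genes were 3 receptors for uptake of glycans. Mrc1, the mannose receptor, was at 11.85 and 8.48 on the GM-DC arrays and at 10.22 and 6.73 on the GM-TNFa-DC arrays. Clec10a, a galactose-type lectin, was at 9.82 and 8.49 and with TNFa at 8.22 and 7.24. Mgl2, its close paralog, was at 10.25 and 8.27 and with TNFa at 8.25 and 7.11. All 3 were higher on number 1 than on number 2 in each group, and the groups of Clec10a and Mgl2 did not overlap although those of Mrc1 did (-1.69 ± 1.47 SE, unadjusted p = 0.296). Because Clec10a and Mgl2 are near-identical copies, their probe sets may share signal, which was not tested. In the progenitors the 2 were far apart, with Clec10a at 9.07 and 8.01 and Mgl2 at 2.59 and 3.77. Of 49 measured pattern recognition and uptake receptors, 24 were lower and 12 higher in both pairs (medians -0.43 and -0.01). The list's median mean difference of -0.15 was 0.12 without GM-TNFa-DC 1.

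Ccr2, the receptor that brings monocytes out of the bone marrow, was at 8.86 and 8.78 on the GM-DC arrays and at 7.60 and 7.34 on the GM-TNFa-DC arrays. Maf, a transcription factor of macrophages, was at 6.54 and 8.75 and with TNFa at 5.06 and 7.03. The arrays of Ccr2 were close within each group and did not overlap, while GM-TNFa-DC 2 was above GM-DC 1 for Maf. All 3 other probe sets of Ccr2 and all 5 of Maf were lower in both pairs, although a single one of Ccr2 barely differed (-0.07 and -0.08). Of 27 measured monocyte and macrophage markers 12 were lower and 4 higher in both pairs. The summed level of the 7 measured defining macrophage markers was 13.02 and 14.01 in GM-DC and 12.89 and 14.35 in GM-TNFa-DC, with 2 of them higher and 2 lower in both pairs. The dimmest of them, C1qa, was below the array median on number 1 of both groups, at 3.67 and 5.45 without and 3.84 and 4.85 with TNFa. Their part in these results was not tested.

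Rgs2, which limits signalling by G protein-coupled receptors, was at 9.20 and 9.43 on the GM-DC arrays and at 7.95 and 8.10 on the GM-TNFa-DC arrays. Id1, an inhibitor of bHLH transcription factors that responds to BMP signalling, was at 6.97 and 7.50 and with TNFa at 5.35 and 6.35. Frmd4b, a cytoskeletal scaffold, was at 6.96 and 7.22 and with TNFa at 5.33 and 5.78. These 3 genes were lower on both arrays with TNFa than on either without it. Ear3, an eosinophil-associated ribonuclease, went from 11.16 and 9.03 to 9.46 and 7.85. It belongs to a family of near-identical genes whose probes can hybridise to each other, so the member is uncertain. Of the 9 lower genes 6 had groups without overlap (10.6% of all genes had lower groups without overlap), a count that follows in part from choosing them by these values. Of their 15 other probe sets, 14 were lower in both pairs, by any amount.

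Among the 105 genes at least 1.5-fold lower were further surface and signalling genes. Thbd, thrombomodulin, differed by -1.91 and -0.91 and the toll-like receptor Tlr8 by -1.53 and -0.75. Tgfbr2, the TGF-beta receptor, went from 10.72 and 10.30 to 9.63 and 9.76 without overlap, just outside that minimum in pair 2 (-0.54). Cdh1, or E-cadherin, went from 9.91 and 8.77 to 8.73 and 8.03, and Klf4 differed by -0.63 and -0.73. Runx1 differed by -0.71 and -1.07 and the survival factor Bcl2 by -0.78 and -0.60. Groups did not overlap for any of these genes except Klf4. Of the 5 other probe sets of Runx1 only 2 were lower in both pairs, and of the 4 of Bcl2 3 were.

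Cell cycle genes were lower by small and even amounts. Of 36 measured genes of DNA replication, 28 were lower and 0 higher in both pairs (medians -0.31 and -0.45), and of 39 genes of mitosis 34 were lower and 1 higher (medians -0.36 and -0.45), where 26.3% of all genes were lower. Pola1, the primase-linked DNA polymerase, was at 5.20 and 7.01 in GM-DC and at 4.50 and 5.76 in GM-TNFa-DC, but its other probe set was not lower in both pairs. Cdt1, which licenses replication origins, went from 8.33 and 9.40 to 7.69 and 8.69. Kif23, a kinesin of cytokinesis, went from 7.60 and 8.32 to 6.64 and 7.57. Number 2 was the brighter array of each group in these 3 genes, and the groups of Kif23 alone did not overlap. Cdt1 and Kif23 had 2 other probe sets each, of which 1 was lower in both pairs.

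Anln, Cdc20 and Aurkb, which act in cytokinesis, at the exit from mitosis and in chromosome segregation, differed by -0.62 and -0.81, -0.57 and -0.61, and -0.87 and -0.56. The proliferation marker Mki67 was at 9.07 and 10.30 in GM-DC and at 8.72 and 10.12 in GM-TNFa-DC, against 11.90 and 11.34 in the progenitors. No gene of either list was called (limma, adjusted p = 1.00). Only 1 of the 36 and 2 of the 39 genes had lower groups without overlap, against 10.6% of all genes. All 36 replication and all 39 mitosis genes were higher on GM-DC 2 than on GM-DC 1, so with GM-DC 2 left out the medians turned to 0.30 for replication and 0.40 for mitosis, and with GM-TNFa-DC 1 left out to 0.15 and 0.36. Without GM-DC 1 they were -0.96 and -1.22, and without GM-TNFa-DC 2 they were -0.82 and -1.14. The E2F motifs TTTCCCGC and TTTGGCGC, searched on both strands, were in the promoters of 10 of 30 replication genes and of 0 of 32 mitosis genes, against 2.77% of the array's genes. Myc, a driver of growth, was at 7.62 and 6.85 and with TNFa at 6.61 and 6.32.

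**Figure D4:**
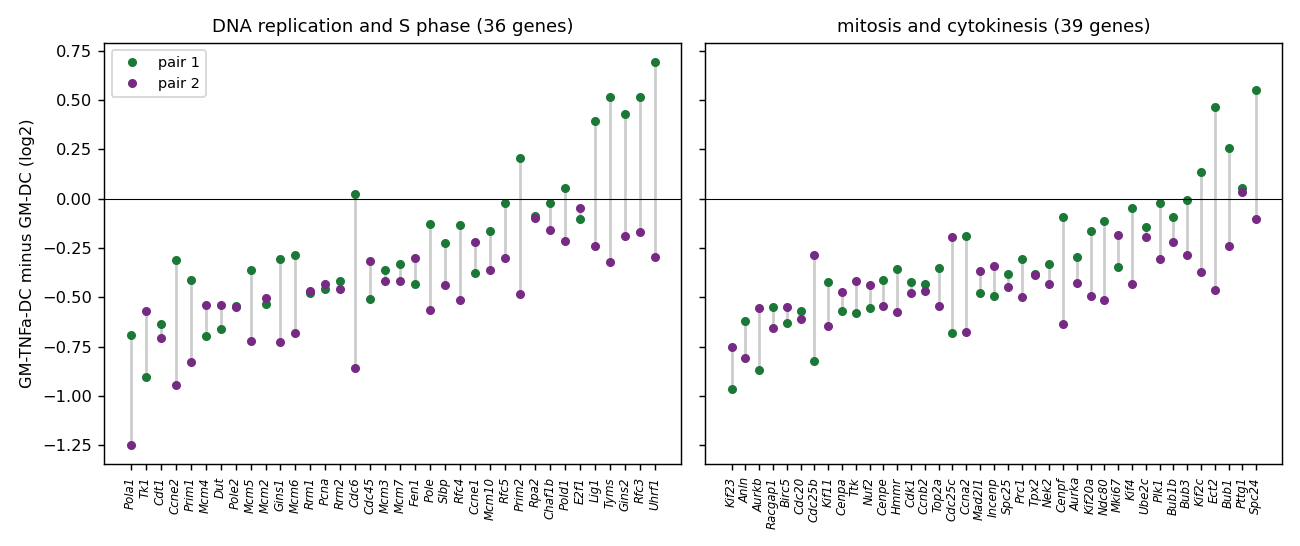
Difference between GM-TNFa-DC and GM-DC (log2) in pair 1 (green) and pair 2 (purple) for each measured gene of DNA replication (left) and mitosis (right). Most points lie below 0, with medians of -0.31 and -0.45 for replication and -0.36 and -0.45 for mitosis; the genes at the right end of each panel are higher in pair 1 and, with the exception of Pttg1, lower in pair 2.

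Neutrophil granule genes, which the progenitors held at high levels, were lower mainly in pair 1. Of 19 measured genes 10 were lower and 1 higher in both pairs (medians -0.92 and -0.04). Ngp, a granule protein, was at 11.02 and 8.04 in GM-DC and at 9.14 and 7.42 in GM-TNFa-DC, against 14.26 and 14.13 in the progenitors. S100a9, a calcium-binding protein of neutrophils, was at 12.60 and 9.12 and with TNFa at 11.01 and 8.72. Prtn3, a serine protease of early granules, went from 5.82 and 6.66 to 5.02 and 5.86. GM-DC 1 was the highest of the 4 arrays for Ngp and S100a9. The summed level of the 6 measured neutrophil markers was 13.72 and 11.77 in GM-DC and 12.16 and 11.71 in GM-TNFa-DC, with 5 of the 6 lower in both pairs. The defining Mpo was at 4.97 and 4.04 without and 4.27 and 3.43 with TNFa, near or below the array medians. Summed markers of progenitors (3 genes) were at 9.14 and 6.31 in GM-DC and 8.77 and 6.17 in GM-TNFa-DC, and those of mast cells and basophils (4 genes) at 8.51 and 7.46 against 7.94 and 7.43. Both sums were lower with TNFa in both pairs, with 2 genes of each list lower and 0 higher, and higher in the progenitor arrays (10.71 to 11.66). The mast cell and basophil sum differed little in pair 2. On number 1 the progenitor sum came mainly from Kit, at 8.997 on GM-DC 1 and 8.66 on GM-TNFa-DC 1. These levels were above the 7.09 and 7.22 of Kit on the GM-MPP arrays, whereas GM-DC 2 (5.65) and GM-TNFa-DC 2 (5.43) were below. The high GM-MPP sums came mainly from Myb (10.89 and 11.51). The part of RNA from neutrophils, progenitors and mast cells in the lower granule and cell cycle genes was not tested.

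Interferon-stimulated and stress genes differed by small amounts in most cases. Of 42 measured interferon-stimulated genes 21 were higher and 7 lower in both pairs (medians 0.27 and 0.11), and Ifit1 alone was 1.5-fold higher in both (0.98 and 0.74). Gbp2, a guanylate-binding protein, went from 9.69 and 9.51 to 11.10 and 10.06. Slc7a11, the cystine transporter, went from 7.11 and 8.56 to 8.06 and 9.69. Gbp2 did not overlap between groups, and Ifit1 and Slc7a11 did, with number 2 higher in each group. Lysosome genes were lower in 22 of 40 and higher in 8, and ribosome biogenesis genes lower in 19 of 30 and higher in 4, with medians of -0.13 in pair 1 for both lists and of -0.05 and -0.07 in pair 2.

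**Figure D5:**
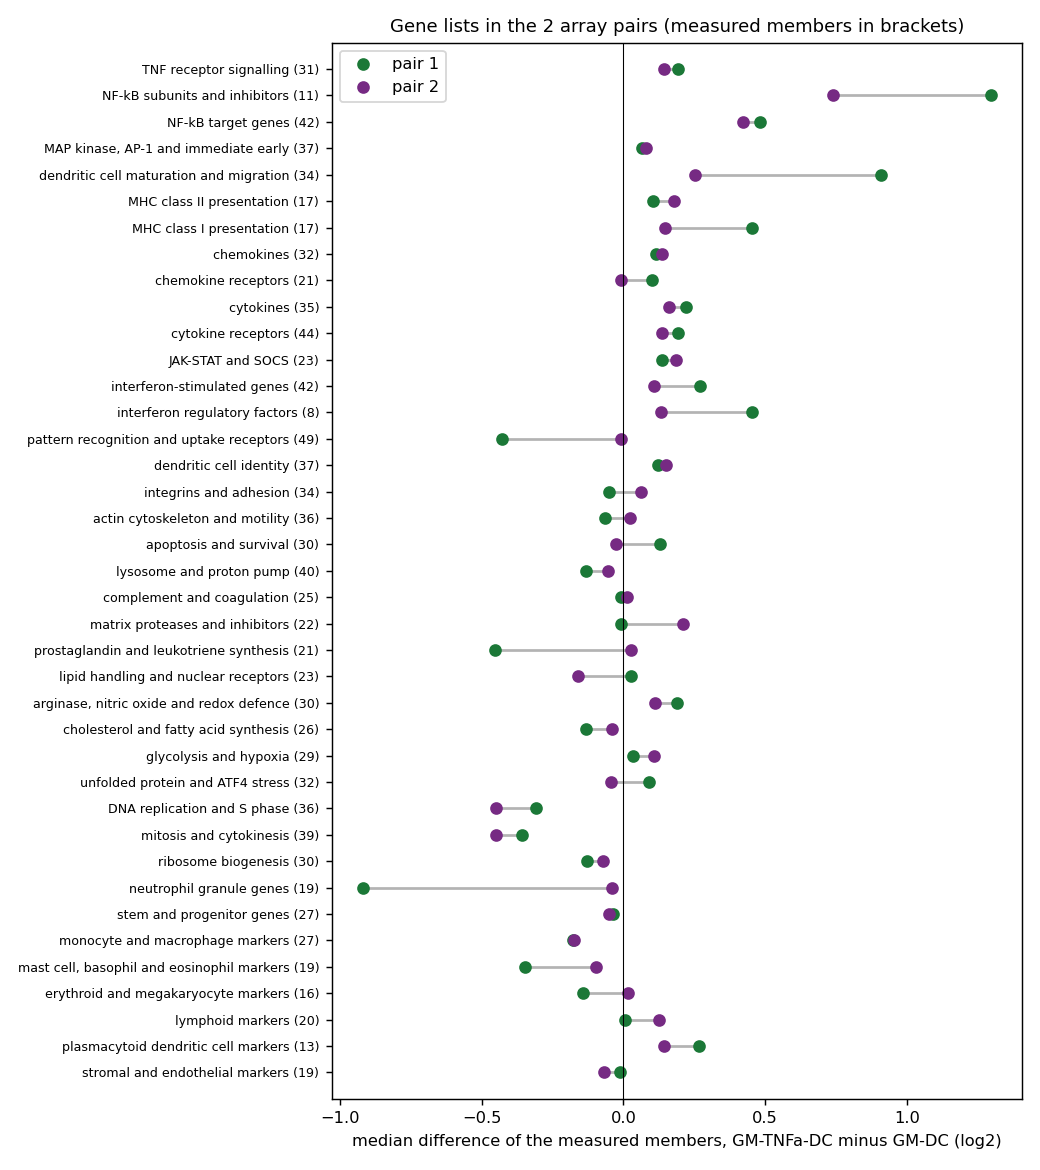
Median difference between GM-TNFa-DC and GM-DC (log2) over the measured members of each of 39 gene lists, in pair 1 (green) and pair 2 (purple). NF-kB subunits and inhibitors lie farthest to the right in both pairs (1.30 and 0.74), both cell cycle lists lie to the left in both, and maturation, uptake receptor and granule genes lie apart from 0 mainly in pair 1.

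Genes at least 2-fold in opposite directions were few: Plod2, a collagen hydroxylase (1.88 and -1.17), and Sdc4, a heparan sulfate proteoglycan (1.78 and -1.12), are 0.011% of the genes. The other probe set of each was higher in both pairs (1.07 and 0.30 for Plod2, 0.32 and 0.19 for Sdc4), so the opposite directions were those of single probe sets. Rap2b, a small GTPase, was at 9.20 on GM-DC 1, 10.02 on GM-TNFa-DC 1 and 6.11 on GM-TNFa-DC 2, with differences of 0.82 and -2.90. Its 3 other probe sets lay between -0.11 and 0.22 in pair 2, so the low value of GM-TNFa-DC 2 was that of a single probe set. For the 77 genes at least 2-fold lower in pair 2 that had other probe sets, those probe sets had a median difference of -0.12 in that pair, whereas for the 117 such genes of pair 1 it was -0.57. For genes at least 2-fold higher the medians were 0.89 in both pairs. The median of a gene's other probe sets was past -0.5 in 11 of the 77 genes and in 65 of the 117.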

How the data were processed

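Total RNA of 6 samples was measured on Affymetrix arrays. The authors' deposited values are log2 expression levels made with RMA, per the submitters' processing notes, and with Bioconductor, per the labels. RMA removes background, brings all arrays to a common distribution and combines the probes of each set into a log2 level. The sources used here do not state its version or which arrays it was run on together. That the scale is log2 was inferred from the range of values. A level near the array median is partly background, so differences of dim genes are compressed, and with 2 arrays a group the precision is low.

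Gene names came from the platform's annotation table and were updated by Entrez identifier to RefSeq symbols (GRCm38.p6). Of 45101 probe sets, 64 were controls, 34945 had 1 symbol, 932 several and 9160 none, which gave 18193 genes, each represented by its probe set with the highest mean over the 6 arrays. Differences were computed within same-numbered arrays. The tests compared the groups without this pairing, in R 4.3.3 with limma 3.58.1 (lmFit, eBayes with trend, 3 groups sharing 1 spread, Benjamini-Hochberg over all genes, threshold 0.05). The fit was tested on simulated data. Errors after ± are moderated standard errors of this unpaired fit. Tables were prepared in Python 3.11.15 and plots in matplotlib 3.10.9.

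The genes described, the 39 lists (1197 entries, of which 104 had no single-gene probe set) and the tests were chosen with earlier results of these data known. Named were the genes at least 2-fold the same way in both pairs, up to 5 members of each list with the largest smaller pair difference, all members of the TNF receptor and NF-kB lists, a panel of dendritic cell genes and up to 10 genes that differ in opposite directions. The text gives part of them, and a few further genes were chosen after their values were seen. As alternatives the arrays were quantile-normalized again or centred on their medians, dim genes were dropped, probe sets were averaged per gene or all used, the prior was varied, the fit was limited to the 4 dendritic cell arrays, the number was added as a block, other fold minimums were set and each array was left out.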

Additional observations from a re-analysis of the deposited data

How the results depend on the processing

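In every alternative fit limma called 0 genes at an adjusted p under 0.05, including all 45037 probe sets that are not controls (642 higher and 355 lower at an unadjusted p under 0.05), the 4 dendritic cell arrays alone (212 and 95) and each array left out (lowest adjusted p from 0.246 without GM-DC 2 to 1.00). The numbers of the arrays give only 2 pairs in the groups compared, and nothing in the labels says what they mark. Deviations from the group means correlated at 0.806 between same-numbered arrays of GM-DC and GM-TNFa-DC, and at 0.105 and 0.0719 with those of GM-MPP. With the number as a replicate block the counts were again 0 higher and 0 lower (366 and 226 at an unadjusted p under 0.05), and with the block on the 4 dendritic cell arrays, which leaves 1 residual degree of freedom, 0 and 0 (752 and 722, lowest adjusted p = 0.157).

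The 13 higher and 9 lower genes past 2-fold in both pairs became 10 and 12 after a second quantile normalization (10 and 9 of them shared), 12 and 9 after median centring or without dim genes, and 10 and 7 with probe sets averaged per gene (10 and 6 shared). A 1.5-fold minimum gave 91 and 105, a 4-fold minimum 1 and 0, and a single pair 37 to 258 higher and 95 to 229 lower.

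The median mean difference of NF-kB targets went from 0.51 to 0.59 without dim genes, and that of mitosis genes from -0.42 to -0.28 with the mean of probe sets. With the mean of probe sets, that of NF-kB subunits and inhibitors went from 1.16 to 0.83. Their median was then 1.16 in pair 1 and 0.50 in pair 2, and all 11 genes stayed higher in both pairs. With 1 array left out, medians ranged from 0.52 to 1.26 for NF-kB subunits and inhibitors, 0.043 to 0.91 for NF-kB targets, 0.084 to 0.25 for TNF receptor signalling, 0.012 to 0.95 for maturation, -0.41 to 0.12 for uptake receptors, -0.99 to -0.13 for granule genes, -0.96 to 0.30 for replication and -1.22 to 0.40 for mitosis. These fits leave the numbers unmatched. Of 192 values of 48 named genes under the other normalizations, probe set means or the block, 190 kept their sign, and of 192 with 1 array left out 160 did. In this balanced design the block cannot change a difference, and averaging cannot change a gene with 1 probe set. Part of the 190 was therefore fixed in advance.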

Other observations

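The largest contrasts among the dendritic cell arrays lay between the sample numbers and were present with and without TNFa. Arg1, arginase 1, was at 3.11 on GM-DC 1 and 12.78 on GM-DC 2, and at 2.93 and 12.60 on the GM-TNFa-DC arrays. Cd14, the coreceptor for bacterial lipopolysaccharide, was at 7.48 and 12.50 without and 8.50 and 13.18 with TNFa. Cd209a, a lectin receptor, was at 11.37 and 4.33 without and 8.64 and 4.18 with TNFa, so that a difference with TNFa could be seen on number 1 alone. Genes of cholesterol and fatty acid synthesis were mostly higher on number 1, with GM-DC 2 above GM-DC 1 in only 2 of 26 measured genes, and their differences with TNFa were small (medians -0.13 and -0.04). Interferon-stimulated genes were higher on GM-DC 2 than on GM-DC 1 in 36 of 42. These genes were chosen after their values were seen, and the cause of the difference between the numbers was not tested. The counts of genes higher on GM-DC 2 have no share over all genes beside them.

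The ends of control transcripts, a measure of RNA integrity, differed little between groups: the signal of the 3′ minus the 5′ probe set of beta-actin was 0.57 and 0.46 on the GM-DC arrays and 0.52 and 0.66 on the GM-TNFa-DC arrays. Over the 45037 probe sets that are not controls, pair 2 had 74 at least 2-fold higher and 604 lower, while pair 1 had 582 higher and 385 lower.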
